A study of Mus musculus with 6 samples.

Results

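Integrins and laminins were taken as the protein-coding genes whose mouse symbol begins with Itga, Itgb, Lama, Lamb or Lamc, without the integrin-binding proteins Itgb1bp1, Itgb1bp2 and Itgb3bp and the integrin-like Itgbl1. The rule gave 38 genes, 27 for integrin subunits and 11 for laminin chains, of 56691 genes in the count files, of which 21630 are protein-coding. Their mRNA was compared by sequencing total RNA of kidneys of 3 cisplatin mice and 3 control mice, each mouse giving 1 library. All mice were C57BL/6 males, 9 weeks old when the treatment began and sampled at week 7. The cisplatin mice received 4 weekly intraperitoneal injections of 8 mg/kg cisplatin, a DNA-damaging drug that injures the proximal tubule, and are labelled as having chronic kidney disease (CKD), while the control mice received saline. The libraries come from kidney tissue of males of a single strain at a single time point, so that every value below is a mixture of the cell types of the kidney.

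Integrins are receptors made of an alpha and a beta subunit that span the cell membrane and tie the cytoskeleton to the matrix or to other cells. Laminins are trimers of an alpha, a beta and a gamma chain that polymerise into the sheet of every basement membrane, including those under the tubules and in the glomerulus. Tubular epithelium holds to its laminin sheet mainly through the beta1 integrins, leukocytes enter tissue through beta2 integrins, and alphav integrins with beta6 or beta8 release TGF-beta, a main inducer of fibrosis, from its latent form.

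Counted read pairs per library numbered 21891855 to 25356523 in the cisplatin group and 24111688 to 26627554 in the control group, and pairs that fell in no gene made up 6.09% to 9.32% in cisplatin libraries and 4.63% to 4.86% in control libraries. Levels are given as CPM, counts relative to library size, adjusted between libraries by the trimmed mean of M-values (TMM), and levels of different genes are compared only as CPM per kb of exon. Changes are log2 fold changes of cisplatin over control with their standard error (SE). Every adjusted p is from the quasi-likelihood F test of edgeR with Benjamini-Hochberg adjustment over the 15662 genes tested, and a gene is called higher or lower where it is under 0.05. Cisplatin replicate 1 had the highest CPM of the 3 cisplatin libraries for 27 of 34 tested integrin and laminin genes (79.4%, against 36.8% of all genes tested), and cisplatin replicate 3 the lowest for 22 of 34 (64.7%, against 37.6%).

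Of the 34 genes with enough counts to be tested, 17 were higher and 4 lower in cisplatin kidneys, and 13 passed in neither direction. Among all genes tested, 24.5% were called higher and 22.8% lower, so that the 17 higher genes (of 34) stand above the background and the 4 lower genes below it. Integrins numbered 11 higher and 2 lower of 23 tested, and laminins 6 higher and 2 lower of 11 tested. The higher genes included Itgam, Itgb4, Lama5, Itga3, Itga2, Itgb2, Lama2, Itgb3, Lamb1, Lamc1, Lamb2, Itga6, Itgav, Itgb5, Itgb1 and Itga1, and the lower genes were Lama3, Itgb6, Itgb8 and Lama1. By 2-fold or more 5 genes were higher, among them Itgam, Itgb4, Lama5 and Itga3, against a background of 9.78% of all genes, and no integrin or laminin gene was lower by as much. The cisplatin and control libraries did not overlap for 20 of the 34 genes, against 57.8% of all genes tested, so the share without overlap was near the background. Median changes on the log2 scale were 0.33 over the 34 genes, 0.31 over integrins and 0.54 over laminins, against 0.05 over all genes tested.

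Without control replicate 3 the count of higher genes was 10, beside 18.7% of all genes. Without cisplatin replicate 1, the library that was most often highest, it was 14 with 5 lower, beside 23.2% of all genes higher and 22.4% lower. The split between higher and lower depended on the scaling. With library totals in place of TMM the median of all genes tested moved to 0.48, 54.3% of all genes were called higher and 8.78% lower, and of the integrins and laminins 21 were called higher and 1, Itgb6, lower. In bulk tissue, a change in the number of cells of a type and a change in RNA per cell cannot be told apart.

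**Figure D1:**
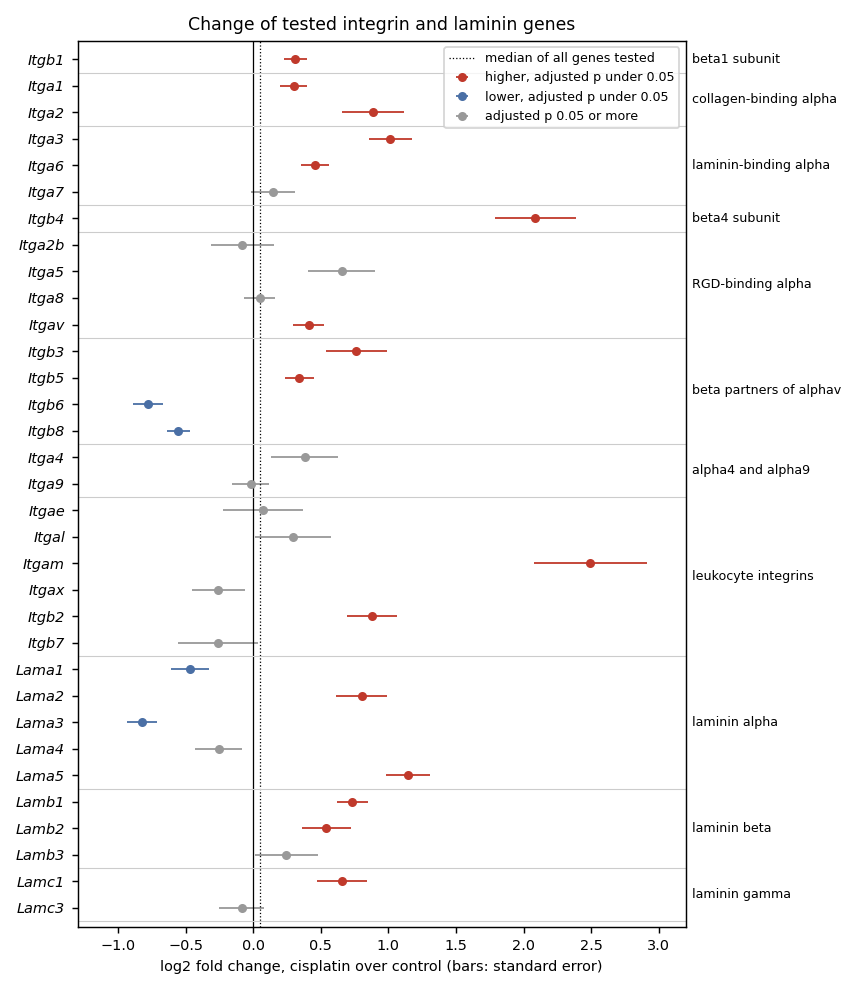
Log2 fold change of cisplatin over control for 33 of the tested integrin and laminin genes, grouped by role, with points as fitted values and bars as their standard error (3 mice per group). Itgam and Itgb4 lie beyond 2 on this scale, and the lower genes Itgb6, Itgb8, Lama1 and Lama3 lie left of 0, of which Itgb6 alone kept its call when libraries were scaled by their totals.

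Promoter sequence, from 250 bases before to 50 after an annotated start, was matched for 24 of the 38 genes in RefSeq (GRCm38.p6, an older build than the GRCm39 of the counts). Genes without a matched entry included Itga6, Itga7, Itgad, Itgae, Itgal, Itgb2, Itgb3, Itgb4, Lama1, Lama3, Lama4, Lamc1 and Lamc3. On both strands, the AP-1 letters TGANTCA occurred in 3 of 24 (12.5%, against 8.97% of 27025 genes), the TEAD letters GGAATG in 3 (12.5%, against 16.6%), the GC box GGGCGG in 11 (45.8%, against 38.2%) and the TATA box TATAAA in 0 (against 15.7%). None of the 4 strings contains another, and a match is a description of letters. The 4 windows below belong to genes that were higher in cisplatin kidneys, and show an AP-1 match at the downstream of 2 annotated Itga3 starts (chr11:95069168-95069197, minus strand), a TEAD match at Itgb1 (chr8:128685635-128685664, plus strand), and GC boxes at Lama5 (chr2:180225901-180225930, minus strand) and Itgb5 (chr16:33829590-33829619, plus strand). They were chosen after the matches were seen. Each is read along the strand of its gene and the matched letters are in capitals, for AP-1 as read on this strand. The AP-1 letters allow any base in the middle, and the Itga3 match has A there. The other AP-1 matches, TGAGTCA at Itgax and TGACTCA at Itga9, belong to genes called in neither direction.
Itga3: gggctggtgccTGAATCActggcttgctca
Itgb1: acgcggcgcggaGGAATGcgtttccggagg
Lama5: ccaggcgggcctGGGCGGggcctgacgtcc
Itgb5: ggtcccggtgcaGGGCGGagctggtccggc

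Itgb1 encodes the beta1 subunit, the common partner of most alpha subunits and the main anchor of kidney epithelium to collagen and laminin. Per kb of exon it had the highest level of all 38 genes in both groups, with 50.3 ± 1.13 CPM per kb in cisplatin kidneys and 40.5 ± 0.641 CPM per kb in control kidneys (SD, n = 3 each). Itgb1 had 305, 293 and 304 CPM in the cisplatin libraries, against 244, 238 and 244 CPM in the control libraries. The replicates lay close together in each group and the groups did not overlap. The log2 fold change was 0.31 (SE 0.0847, adjusted p = 0.0113), and the call was lost when any of the 3 control libraries was left out, with an adjusted p of at most 0.0666.

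**Figure D2:**
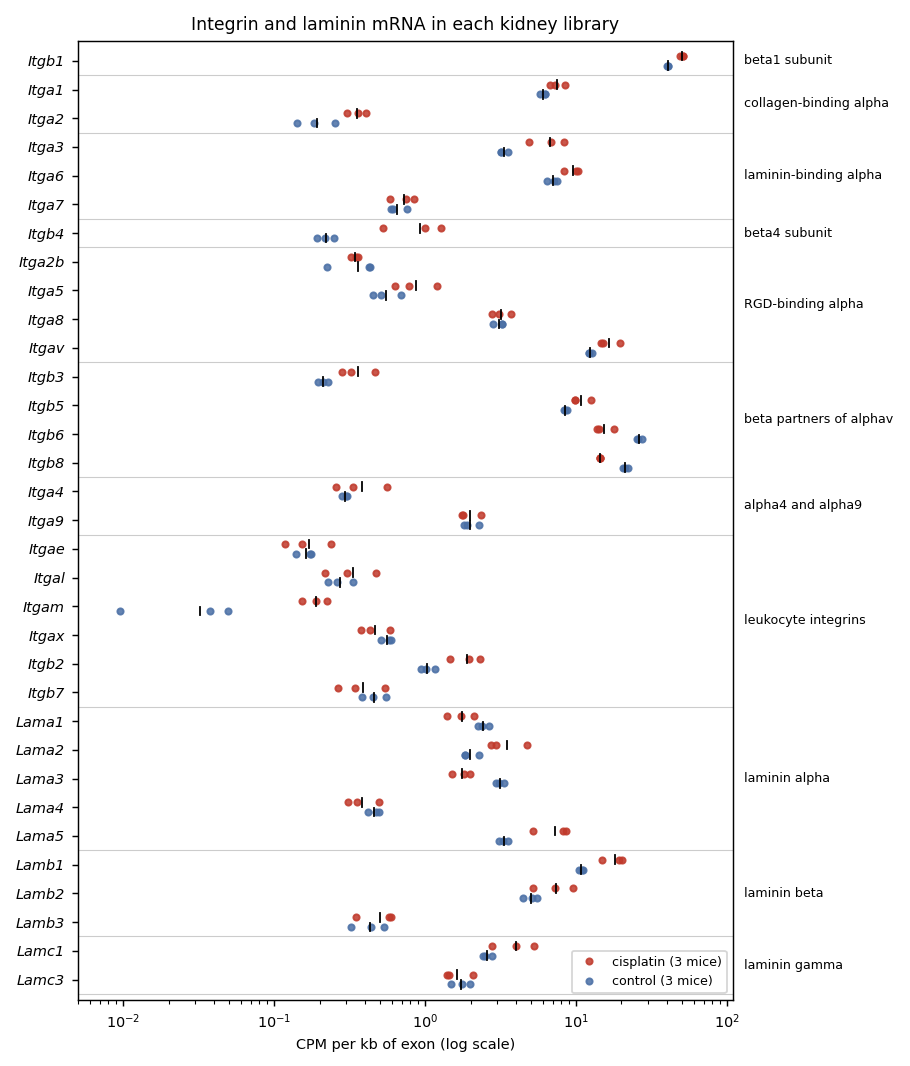
CPM per kb of exon (log scale) of 33 of the tested integrin and laminin genes in each of 3 cisplatin (red, upper) and 3 control (blue, lower) libraries, with short bars at the means. Itgb1 lies at 50.3 in cisplatin and 40.5 in control kidneys on average, above every other gene shown, and the gap between the groups is wide for Itgam and Itgb4.

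The laminin-binding alpha subunits are Itga3, Itga6 and Itga7, of which Itga3 and Itga6 are the epithelial ones and Itga7 is best known from muscle. Itga3 (ENSMUSG00000001507, chr11:94935296-94967682, minus strand of GRCm39) had 48.4, 39.5 and 28.6 CPM in cisplatin libraries, against 18.6, 20.6 and 18.7 CPM in control libraries. Every cisplatin library was above every control library, with replicate 1 the highest. The log2 fold change was 1.01 (SE 0.162, adjusted p = 4.7e-04). Itga6 had 114, 118 and 94.9 CPM in cisplatin libraries and 72.7, 81.2 and 84.8 CPM in control libraries, a log2 fold change of 0.46 (SE 0.106, adjusted p = 0.0047) without overlap. For Itga7 the log2 fold change was 0.14 (SE 0.163, adjusted p = 0.491) and the groups overlapped.

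Itgb4 encodes the beta4 subunit, which pairs only with alpha6 and anchors epithelia to laminin through hemidesmosomes and keratins. Itgb4 (ENSMUSG00000020758, chr11:115865333-115899239, plus strand) had 9.23, 7.17 and 3.80 CPM in cisplatin libraries, against 1.81, 1.56 and 1.39 CPM in control libraries. All cisplatin libraries were above all control libraries, though replicate 3 was far below the other cisplatin libraries. Cisplatin over control came to 2.09 on the log2 scale (SE 0.303, adjusted p = 2.5e-04). Per kb of exon its level remained a small part of that of its partner, at 0.933 ± 0.380 CPM per kb in cisplatin and 0.220 ± 0.0288 CPM per kb in control kidneys, beside 9.59 ± 1.09 CPM per kb of Itga6 in cisplatin and 6.99 ± 0.544 CPM per kb in control kidneys (SD, n = 3 each). Plec, the plakin that links beta4 to keratin, was higher as well, with 84.3 ± 26.8 CPM in cisplatin and 37.7 ± 4.44 CPM in control kidneys (log2 fold change 1.16, adjusted p = 0.0007), and was named after its value was seen. Dst, another plakin, was lower, with 345 ± 56.9 CPM in cisplatin and 470 ± 14.6 CPM in control kidneys (log2 fold change -0.45, adjusted p = 0.0118).

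The collagen-binding alpha subunits are Itga1, Itga2, Itga10 and Itga11. Itga1, known from mesangial and endothelial cells and the highest of the 4 per kb of exon, had 180, 143 and 155 CPM in cisplatin libraries and 133, 123 and 132 CPM in control libraries. The groups did not overlap, and the log2 fold change was 0.30 (SE 0.102, adjusted p = 0.0330). This call was lost with DESeq2, with its size factors, and without any 1 of the 3 control libraries or cisplatin replicate 1, where the adjusted p reached 0.138. Itga2, an epithelial and platelet subunit, had 2.17, 2.58 and 2.88 CPM in cisplatin libraries, against 1.30, 1.80 and 1.01 CPM in control libraries, with a log2 fold change of 0.89 (SE 0.232, adjusted p = 0.0094). Its groups did not overlap, and cisplatin replicate 3 was here the highest library. Itga10, the chondrocyte subunit, and Itga11, the fibroblast subunit, had 1 to 16 counts in each library and were not tested. Gm42957 shares 33.5% of the Itga10 exon bases, so that counts of Itga10 are uncertain.

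Of the subunits that bind the RGD motif of fibronectin, vitronectin and latent TGF-beta, Itgav encodes alphav, the common partner of beta3, beta5, beta6 and beta8. Itgav had the highest level of the RGD-binding alpha subunits per kb of exon, with 16.4 ± 2.71 CPM per kb in cisplatin and 12.4 ± 0.328 CPM per kb in control kidneys (SD, n = 3 each). It had 241, 180 and 187 CPM in cisplatin libraries, against 150, 157 and 151 CPM in control libraries. The groups did not overlap and replicate 1 stood above the other cisplatin libraries. Its log2 fold change was 0.41 (SE 0.116, adjusted p = 0.0141), and the call was lost without control replicate 1 or control replicate 3, with an adjusted p of at most 0.0596. Itga5, the fibronectin receptor subunit, missed the threshold at a log2 fold change of 0.65 (SE 0.248, adjusted p = 0.0506). It passed under 8 alternatives, among them upper-quartile factors (adjusted p = 0.0263) and no low-count filter (adjusted p = 0.00156), while over all alternatives but the test against a fold change the adjusted p ran between 0.00156 and 0.195. It had 6.37, 4.16 and 3.36 CPM in cisplatin libraries and 3.70, 2.73 and 2.40 CPM in control libraries, which overlap between cisplatin replicate 3 and control replicate 1. Itga8, the nephronectin receptor subunit needed for kidney development, had a log2 fold change of 0.05 (SE 0.115, adjusted p = 0.752), and Itga2b, the platelet subunit, one of -0.08 (SE 0.231, adjusted p = 0.795).

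The beta partners of alphav divided into 2 higher and 2 lower genes. Itgb6 encodes the epithelial beta6 subunit, which activates latent TGF-beta in a complex with alphav. Itgb6 (ENSMUSG00000026971, chr2:60428636-60553035, minus strand) had 105, 100 and 130 CPM in cisplatin libraries, against 190, 186 and 200 CPM in control libraries. Every cisplatin library was below every control library, and replicate 3 was the highest of the cisplatin libraries. Itgb6 fell by 0.78 on the log2 scale (SE 0.110, adjusted p = 2.0e-04), and with library totals by 0.36, where the call held. Itgb8, the other subunit that activates TGF-beta with alphav (ENSMUSG00000025321, chr12:119121748-119202584, minus strand), had 162, 163 and 163 CPM in cisplatin libraries and 232, 248.5 and 236 CPM in control libraries. The replicates were near each other and the groups did not overlap. It fell by 0.55 (SE 0.0835, adjusted p = 3.2e-04), but with library totals by 0.13, where it was not called.

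Itgb5, a vitronectin receptor subunit, had 88.6, 69.2 and 69.2 CPM in cisplatin libraries, against 59.7, 61.2 and 58.4 CPM in control libraries. The groups did not overlap and replicate 1 was the highest. The difference was 0.34 on the log2 scale (SE 0.107, adjusted p = 0.0223), a call that was lost without any 1 of the control libraries. Itgb3, the subunit of platelets and activated endothelium, had 3.06, 2.14 and 1.88 CPM in cisplatin libraries and 1.39, 1.51 and 1.30 CPM in control libraries, with a log2 fold change of 0.76 (SE 0.229, adjusted p = 0.0184). Its call was lost with DESeq2 and without control replicate 1, control replicate 3 or cisplatin replicate 1, where the adjusted p reached 0.0736.

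Shares of a class within a library, computed from counts per kb of exon, do not depend on the scaling between libraries. Among the 4 beta partners of alphav, Itgb6 made up 37.3% ± 4.07 in cisplatin and 46.7% ± 1.56 in control kidneys (SD, n = 3 each). Itgb5 made up 26.3% ± 3.52 in cisplatin and 15.1% ± 0.449 in control kidneys. The shares of both genes did not overlap between the groups, for which the exact two-sided permutation test gives p = 0.1, the smallest value that 3 against 3 libraries allow. Itgb8 made up 35.5% ± 1.999 in cisplatin and 37.8% ± 1.18 in control kidneys, a difference that the exact permutation test did not separate (p = 0.3). Among all beta subunits, Itgb1 made up 53.4% ± 0.743 in cisplatin and 41.2% ± 0.532 in control kidneys (exact permutation p = 0.1). Among the alpha subunits, Itga3 made up 13.4% ± 1.93 in cisplatin and 8.94% ± 0.420 in control kidneys (exact permutation p = 0.1), while Itgav made up 33.3% ± 1.82 in cisplatin and 33.4% ± 0.606 in control kidneys (exact permutation p = 1.0).

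**Figure D3:**
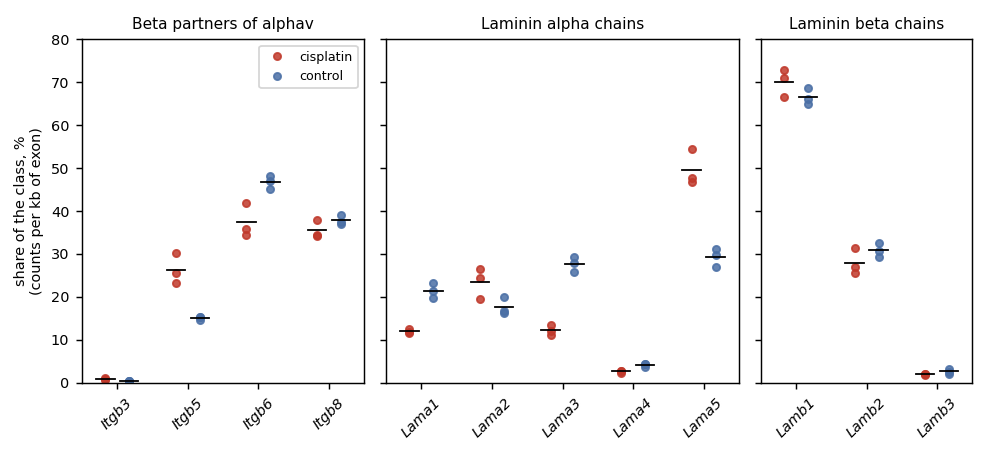
Share of each gene in its class, in percent of counts per kb of exon, in each of 3 cisplatin (red, left) and 3 control (blue, right) libraries, with bars at the means. Lama5 takes the largest mean share of the laminin alpha chains in both groups, at 49.7% in cisplatin and 29.3% in control kidneys, where Lama3 has 27.7%.

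Leukocyte integrins are Itgb2, the common beta2 subunit, with its alpha partners Itgal, Itgam, Itgax and Itgad, and Itgb7 with Itgae. Itgam (CD11b), a subunit of macrophages, monocytes and neutrophils (ENSMUSG00000030786, chr7:127661808-127717753, plus strand), had 28, 34 and 18 counts in cisplatin libraries, against 6, 1 and 4 counts in control libraries. These correspond to 0.964, 1.14 and 0.785 CPM in cisplatin and 0.252, 0.0487 and 0.192 CPM in control libraries, without overlap. This gave a log2 fold change of 2.49 (SE 0.418, adjusted p = 6.5e-04) and rests on these few counts. Itgam passed the filter on low counts only through the cisplatin group, where it is high, so its place among the 17 higher genes and the 5 changed by 2-fold or more is a description, and it was not tested where at least 10 counts were required in every library. Gm49368, annotated on the same strand, shares 67.4% of the Itgam exon bases and had 0 counts in all 6 libraries. Pairs in exons shared by both are counted for neither, so the Itgam level is uncertain.

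Itgb2 had the highest level of the leukocyte integrins per kb of exon, with 1.90 ± 0.427 CPM per kb in cisplatin and 1.04 ± 0.108 CPM per kb in control kidneys (SD, n = 3 each). It had 7.47, 6.30 and 4.71 CPM in cisplatin libraries, against 3.28, 3.07 and 3.75 CPM in control libraries, and the groups did not overlap. Its log2 fold change was 0.88 (SE 0.183, adjusted p = 0.0026). Itgal, the LFA-1 subunit of lymphocytes, had a log2 fold change of 0.29 (SE 0.280, adjusted p = 0.408), Itgax (CD11c), of dendritic cells and some macrophages, one of -0.26 (SE 0.198, adjusted p = 0.305), Itgae (CD103), of dendritic and intraepithelial T cells, one of 0.07 (SE 0.296, adjusted p = 0.864) and Itgb7 one of -0.26 (SE 0.295, adjusted p = 0.489). The groups overlapped for these 4 genes, and in cisplatin libraries each had its highest CPM in replicate 1. Itgad had 0, 0 and 0 counts in cisplatin libraries and 0, 2 and 1 counts in control libraries, and Itgb2l had 0 counts in all 6 libraries, which allows up to 0.0206 CPM without TMM scaling (3 counts in 145759254 counted pairs, counting error only). Itga4, a leukocyte subunit that binds Vcam1, and Itga9, its closest relative, had log2 fold changes of 0.38 (SE 0.246, adjusted p = 0.226) and -0.02 (SE 0.136, adjusted p = 0.920). Itga9, the higher of these per kb of exon, had 18.2, 13.9 and 13.7 CPM in cisplatin libraries, against 17.6, 14.03 and 14.7 CPM in control libraries, which overlapped. Of Itga4, cisplatin replicate 1 alone, at 9.37 CPM, lay apart, as the other cisplatin libraries had 4.29 and 5.58 CPM and the control libraries 4.75 to 5.06 CPM.

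Markers of macrophages and other myeloid cells were higher beside Itgam and Itgb2, with 11 of 12 tested genes higher, 0 lower, and a summed level of 298 to 351 CPM in cisplatin and 96.9 to 122 CPM in control libraries. The 12th, Csf1r, had a log2 fold change of 0.20 (adjusted p = 0.26). Of the neutrophil markers, S100a8 and S100a9 were higher, Csf3r passed in neither direction, and Ly6g, Mpo and Elane had no counts, with a summed level of 4.13 to 4.42 CPM in cisplatin and 2.40 to 2.53 CPM in control libraries. The part of these cells in the change of Itgam and Itgb2 was not tested.

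Among the laminin alpha chains, Lama5 is the chain of the adult glomerular and most tubular basement membranes. Lama5 (ENSMUSG00000015647, chr2:179818166-179867712, minus strand) had 97.6, 93.6 and 59.7 CPM in cisplatin libraries, against 35.4, 40.6 and 37.8 CPM in control libraries. All cisplatin libraries were above all control libraries, replicate 3 being the lowest of them. Cisplatin over control came to 1.14 on the log2 scale (SE 0.162, adjusted p = 2.1e-04). Lama2, the chain of muscle and mesenchyme that is mutated in a congenital muscular dystrophy, had 84.4, 52.4 and 48.6 CPM in cisplatin libraries and 40.8, 32.8 and 32.9 CPM in control libraries, without overlap. Its log2 fold change was 0.80 (SE 0.188, adjusted p = 0.0052), and replicate 1 stood well above the other cisplatin libraries.

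Lama3 and Lama1 were lower. Lama3 (ENSMUSG00000024421), the alpha chain of an epithelial laminin that also holds beta3, had 25.4, 23.4 and 19.3 CPM in cisplatin libraries, against 38.3, 42.9 and 39.9 CPM in control libraries. Every cisplatin library was below every control library. Lama3 fell by 0.83 on the log2 scale (SE 0.109, adjusted p = 1.3e-04), and with library totals by 0.39, where it was not called. Lama1, the chain of embryonic and some adult tubular basement membranes, had 20.5, 16.8 and 13.5 CPM in cisplatin libraries, against 25.9, 21.7 and 23.0 CPM in control libraries, and fell by 0.47 (SE 0.141, adjusted p = 0.0189). The groups did not overlap, but the Lama1 call was lost without control replicate 1 or cisplatin replicate 2, and with library totals, where it fell by 0.03. Lama4, the endothelial chain, had a log2 fold change of -0.26 (SE 0.172, adjusted p = 0.241) with overlap.

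Within the alpha chains of a library, Lama5 made up 49.7% ± 4.16 in cisplatin and 29.3% ± 2.22 in control kidneys (SD, n = 3 each). Lama3 made up 12.2% ± 1.20 in cisplatin and 27.7% ± 1.74 in control kidneys, and Lama1 12.0% ± 0.493 in cisplatin and 21.4% ± 1.77 in control kidneys. Lama4 made up 2.63% ± 0.235 in cisplatin and 4.08% ± 0.322 in control kidneys. For these 4 chains the libraries of the groups did not overlap (exact permutation p = 0.1, the smallest possible), and for Lama2, with 23.5% ± 3.58 in cisplatin and 17.6% ± 2.01 in control kidneys, they did (exact permutation p = 0.2).

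Lamb1, the general beta chain, had the highest level of all laminin genes per kb of exon, with 18.1 ± 2.84 CPM per kb in cisplatin and 10.9 ± 0.358 CPM per kb in control kidneys (SD, n = 3 each). It had 216, 206 and 159 CPM in cisplatin libraries, against 119, 118 and 112 CPM in control libraries. The groups did not overlap, and the log2 fold change was 0.73 (SE 0.117, adjusted p = 4.8e-04). Lamb2, the beta chain of the glomerular basement membrane, had 57.9, 44.4 and 31.6 CPM in cisplatin libraries and 33.8, 31.2 and 27.2 CPM in control libraries. Cisplatin replicate 3 lay within the control range, and the call, at a log2 fold change of 0.54 (SE 0.182, adjusted p = 0.0309), was lost without control replicate 2, control replicate 3, cisplatin replicate 1 or cisplatin replicate 2, with an adjusted p of up to 0.114. Lamb3, the beta chain that assembles with alpha3, had 4.89, 4.73 and 2.88 CPM in cisplatin libraries and 3.62, 4.38 and 2.64 CPM in control libraries. These overlapped, and the log2 fold change was 0.24 (SE 0.232, adjusted p = 0.410). Per kb of exon, Lama3 had 1.76 ± 0.242 CPM per kb in cisplatin and 3.13 ± 0.180 CPM per kb in control kidneys, and its partner Lamb3 had 0.506 ± 0.136 CPM per kb in cisplatin and 0.431 ± 0.106 CPM per kb in control kidneys (SD, n = 3 each). In their shares within a library the beta chains did not separate the groups, since Lamb1 made up 70.1% ± 3.18 of them in cisplatin and 66.6% ± 1.85 in control kidneys (exact permutation p = 0.2).

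Lamc1, the gamma chain of most laminins, had 59.7, 45.2 and 31.5 CPM in cisplatin libraries, against 31.2, 28.4 and 27.2 CPM in control libraries. The groups did not overlap, but by a narrow margin between cisplatin replicate 3 and control replicate 1. The difference was 0.65 on the log2 scale (SE 0.185, adjusted p = 0.0139), and without control replicate 3 the adjusted p was 0.0524. Lamc3, a chain found in a few laminins only, had a log2 fold change of -0.09 (SE 0.166, adjusted p = 0.690) with overlap.

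Several marker lists moved with these genes. Injured tubule markers, such as Havcr1 (KIM-1) and Lcn2, were higher for 10 of 10, with summed levels of 840 to 928 CPM in cisplatin and 187 to 198 CPM in control libraries. In control libraries Lcn2 had 10, 25 and 19 counts, Krt20 2, 5 and 4, and Sox9 5, 5 and 5. Lcn2, Krt20 and Sox9 passed the filter on low counts only through the cisplatin group, where they are high, so their calls are a description. Proximal tubule markers were lower for 9 of 10 and higher for 0, with sums of 4879 to 5067 CPM in cisplatin and 32021 to 32417 CPM in control libraries, most of which in controls was Kap, an androgen-dependent gene of the proximal tubule with 280 CPM in cisplatin and 21207 CPM in control kidneys. Collecting duct markers were higher for 7 of 8 and lower for 0, with sums of 331 to 385 CPM in cisplatin and 202 to 222 CPM in control libraries. Krt18 is counted in both the injured tubule and the collecting duct list, with 53.1 CPM in cisplatin and 12.3 CPM in control kidneys. Fibroblast markers were higher for 7 of 8 and lower for 0, with sums of 607, 385 and 372 CPM in cisplatin and 173 to 220 CPM in control libraries. Replicate 1 was the highest, as it was for 27 of the 34 tested integrin and laminin genes, Lama2 among them. Podocyte markers were higher for 4 of 8 and lower for 0, with sums of 198 to 275 CPM in cisplatin and 180 to 193 CPM in control libraries, while Nphs1, the slit diaphragm protein nephrin, passed in neither direction. The part of these cell types in the changes of integrins and laminins was not tested.

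The further genes of the adhesion pathway were read from lists, each described by its counts and its median beside those of all genes tested (24.5% higher, 22.8% lower, median log2 fold change 0.05). Of 39 tested adaptors between integrins and the cytoskeleton, 16 were higher and 5 lower, with a median of 0.29. Cd9, a tetraspanin that binds beta1 integrins, had 78.3 ± 1.01 CPM in cisplatin and 37.1 ± 0.395 CPM in control kidneys (log2 fold change 1.08, adjusted p = 1.9e-06), and the actin crosslinker Flna had 352 ± 59.1 CPM in cisplatin and 136 ± 11.6 CPM in control kidneys (1.37, adjusted p = 1.3e-05). The epithelial kindlin Fermt1 (log2 fold change 0.53) and the muscle filamin Flnc (3.41) were higher as well. Flnc had 337, 265 and 99 counts in cisplatin libraries, against 31, 12 and 8 in control libraries. It passed the filter on low counts only through the cisplatin group, where it is high, so its place among the 16 higher genes is a description. Lower adaptors included the talin Tln2, which couples beta subunits to actin, with 101 ± 11.8 CPM in cisplatin and 152 ± 6.37 CPM in control kidneys (log2 fold change -0.60, adjusted p = 0.0007), beside Kank1 (-0.54), the kinase Ptk2b (-0.37) and the plakin Dst (-0.45).

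Matrix ligands other than laminins had the highest median of the 5 adhesion lists, at 0.79, with 24 higher and 5 lower of 37 tested. Col1a1, Col1a2 and Col3a1, counted here as higher, and Postn, called in neither direction, are also counted in the fibroblast marker list. Spp1, the RGD ligand osteopontin, had 1945 ± 162 CPM in cisplatin and 237 ± 16.9 CPM in control kidneys (SD, n = 3 each, log2 fold change 3.04, adjusted p = 4.3e-08). The fibrinogen chain Fgg (log2 fold change 1.87), the laminin-binding netrin Ntn4 (0.96) and the basement membrane protein Frem1 (1.49) were higher. Another fibrinogen chain among the 24 higher genes, Fgb, had 16, 9 and 9 counts in control libraries and is named only for this limit. It passed the filter on low counts only through the cisplatin group, where it is high, so its call is a description. Among the lower genes were Col4a3 and Col4a4, the collagen IV chains of the glomerular and some tubular basement membranes. Col4a3 had 123 ± 17.9 CPM in cisplatin and 327 ± 6.99 CPM in control kidneys (log2 fold change -1.41, adjusted p = 4.2e-06), and Col4a4 101 ± 17.5 CPM in cisplatin and 203 ± 4.23 CPM in control kidneys (-1.01, adjusted p = 6.2e-05). The tubulointerstitial nephritis antigen Tinag (-1.06) and Fras1 (-1.28), which joins Frem1 in a basement membrane complex, were lower too.

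Of 11 tested cell surface ligands of integrins, 5 were higher and 3 lower, with a median of 0.19. Vcam1, the ligand of alpha4 beta1 and also a marker of injured tubules, had 62.1 ± 17.6 CPM in cisplatin and 8.46 ± 1.40 CPM in control kidneys (log2 fold change 2.87, adjusted p = 2.4e-06). Icam1, the ligand of beta2 integrins, had 31.8 ± 2.24 CPM in cisplatin and 11.4 ± 2.25 CPM in control kidneys (1.48, adjusted p = 1.1e-05). Sema7a (0.95) and Thy1 (1.46) were higher, and Icam2 (-0.77), Cadm1 (-0.35) and Jam3 (-0.34) were lower. Thy1, with 20, 13 and 10 counts in control libraries, passed the filter on low counts only through the cisplatin group. Its place among the 5 higher genes is therefore a description. Of 11 tested laminin receptors other than integrins and laminin-binding proteins, 7 were higher and 0 lower, with a median of 0.45. Those with the smallest adjusted p were the lectin Lgals3, with 77.9 ± 7.01 CPM in cisplatin and 15.6 ± 0.711 CPM in control kidneys (log2 fold change 2.32, adjusted p = 5.9e-08), the syndecan Sdc1 (2.06), Bcam (1.597), a receptor of the alpha5 chain, and Mcam (0.48), a receptor of the alpha4 chain. Of 12 genes of the latent TGF-beta complex, its activation and its receptors, 7 were higher and 0 lower, with a median of 0.58. Ltbp2, a matrix protein of the family that holds latent TGF-beta, had 134, 56 and 36 counts in cisplatin libraries, against 5, 3 and 5 in control libraries. This was 2.69 ± 1.68 CPM in cisplatin and 0.199 ± 0.0482 CPM in control kidneys (log2 fold change 3.73, adjusted p = 0.00025). Ltbp2 passed the filter on low counts only through the cisplatin group, where it is high, so its place among the 7 higher genes is a description. The receptors Tgfbr2 (0.57) and Tgfbr1 (0.39) were higher, beside the lower Itgb6 and Itgb8, of which Itgb8 was not called with library totals.

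**Figure D4:**
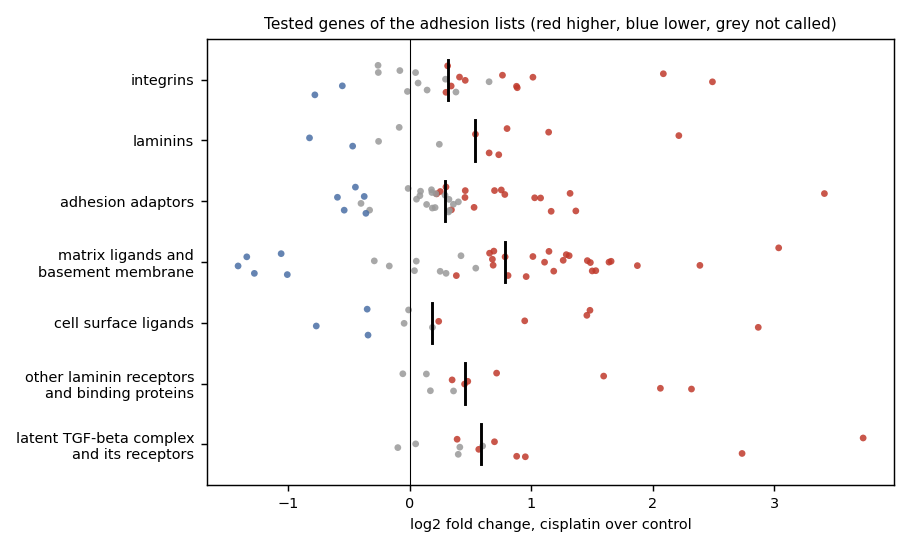
Log2 fold change of cisplatin over control for each tested gene (points) of integrins, laminins and 5 adhesion lists, with black bars at the medians. The medians run between 0.19 for cell surface ligands and 0.79 for matrix ligands, and every list but laminin receptors and the TGF-beta list holds genes called lower (blue).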

How the data were processed

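The authors extracted total RNA from kidneys, built stranded libraries, trimmed read pairs with Cutadapt, aligned them to mm39 (GRCm39) with STAR and deposited raw counts per gene, 1 table per library and without normalization. The study lists versions of Cutadapt and STAR, while their settings for these libraries and the gene annotation behind the counts are not given in the sources at hand. Counts of the transcript's strand were used, which held 96.7% to 97.2% of stranded counts. Genes were named and measured with GENCODE vM39.

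The 6 libraries were fitted in edgeR 4.0.16 with TMM factors and its quasi-likelihood F test, after a filterByExpr filter (count of 10, total of 15). P-values took a Benjamini-Hochberg adjustment at 0.05. Shares used an exact two-sided permutation test over 6 libraries, which cannot go below p = 0.1. No source says whether the mice were processed in batches. Between libraries of the same group the chi-square per gene was 13.2 to 40.5 in cisplatin and 4.96 to 7.19 in control libraries, above the noise of counting.

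The genes and lists were chosen with earlier results of these data known. Values per library were given for called genes changed by 2-fold or more and for the highest gene of each role per kb of exon, and for other called genes. Of other lists, at most 4 genes per direction with the smallest adjusted p were named, with exceptions stated. A few genes that enter the counts are not reported here by name or value. Genes called in neither direction and markers singled out were named outside this rule.

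Alternatives were DESeq2 1.42.0, limma-voom 3.58.1, other scalings, other filters, counts that ignore strand, a block for the replicate number, fits that left a library out, a stricter adjusted p of 0.01, a test against a fold change of 1.5 and raw counts for shares. Scripts ran in R 4.3.3 and in Python 3.11.15 with matplotlib 3.10.9, numpy 2.4.6 and pandas 2.3.3.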

Additional observations from a re-analysis of the deposited data

How the results depend on the processing

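The 21 called genes kept their sign under every alternative run. Itgb4, Lama5, Itga3 and Itgam were called in every alternative that gave them a value, and 13 of 21 called genes in every fit without 1 library. With library totals, lower genes numbered 1 (integrins 1, laminins 0), beside 8.78% of all genes lower. The median log2 fold change was 0.76, while the median of all genes moved to 0.48. At an adjusted p under 0.01, 10 genes were higher (integrins 6) and 3 lower (integrins 2, laminins 1), beside 16.4% of all genes higher and 16.4% lower. Against a fold change of 1.5, 5 were higher (integrins 3, laminins 2) and 1 lower (integrins 0, laminins 1), beside 8.91% of all genes higher and 7.11% lower. Leaving out each library gave 10 to 18 higher and 3 to 5 lower genes, 6 to 12 higher and 2 lower integrins, 4 to 6 higher and 1 to 3 lower laminins, and a median between 0.21 and 0.42. In those fits 18.7% to 25.2% of all genes were called higher and 18% to 26.1% lower, so the background moved as well. Integrins called higher numbered 6 without control replicate 3 and 7 without control replicate 1, beside 18.7% and 19.2% of all genes higher. Laminins called lower numbered 1 without control replicate 1 or cisplatin replicate 2, beside 18.6% and 19.4% of all genes lower. Of the genes called in neither direction, Itga2b, Itga9, Itgax, Itgb7, Lama4 and Lamc3 had negative log2 fold changes that were positive with library totals. The causes were not tested. With raw counts in place of counts per kb, the difference in share (cisplatin minus control, percentage points) was -7.87 for Itgb8 of beta subunits (-6.25 per kb), -7.36 for Lama1 (-9.44) and 2.30 for Itga3 (4.49).

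The main fit did not pair samples by replicate number. Deviations of libraries with the same number correlated at 0.133, 0.142 and 0.0997, and those with different numbers at -0.126 to -0.0259. Each library thus correlated best with its own number, a weak hint from the data only. Whether the numbers mark a pairing or a shared batch was not tested. With the replicate block 18 genes were higher and 4 lower, beside 26.1% and 24.2% of all genes, and Itga5 was called (adjusted p = 0.00421).

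With 3 mice per group, the calls of small changes such as those of Itga1, Itgb1, Itgb5 and Lamb2 were lost in some fits with 1 library fewer. The calls of Itgb1 and Itgb5 were lost whichever control library was left out, and were kept without any 1 of the cisplatin libraries. In the fits without a control library 18.7% to 19.2% of all genes were called higher, beside 24.5% in the main fit. Genes under about 10 counts in most libraries of both groups were not tested. DESeq2 called 15 higher and 4 lower, beside 9.64% and 11.6% of its 30146 genes. That base holds every gene with a DESeq2 p-value, including low-count genes left out of the 15662 genes of the main fit. The DESeq2 shares are therefore not comparable with the main background of 24.5% higher and 22.8% lower.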

Other observations

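Cell types that the report does not describe beside integrins gave the following counts. Endothelial markers were lower for 4 of 9 and higher for 0, with summed levels of 277 to 341 CPM in cisplatin and 385 to 393 CPM in control libraries, led by Kdr, the VEGF receptor. Thick ascending limb and distal tubule markers were higher for 1 of 6, Slc12a1, and lower for 3, with sums of 2869 to 3272 CPM in cisplatin and 3502 to 3761 CPM in control libraries. Mesangial and smooth muscle markers were higher for 3 of 8 and lower for 2, with sums of 183 to 230 CPM in cisplatin and 193 to 212 CPM in control libraries, which overlap.

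T and NK cell markers were higher for 4 of 6 tested and lower for 0, with sums of 5.93 to 7.61 CPM in cisplatin and 3.03 to 4.41 CPM in control libraries. Of the higher ones, Cd3g had 7, 9 and 4 counts in control libraries and Cd8a 16, 10 and 6. Cd3g and Cd8a passed the filter on low counts only through the cisplatin group, where they are high, so their calls are a description. Dendritic cell markers divided into 3 higher, among them the antigen presentation genes Cd74 and H2-Ab1, and 3 lower, Flt3, Clec9a and Cd209a, of 7 tested, with sums of 200.5 to 330.4 CPM in cisplatin and 193 to 205 CPM in control libraries. The 3 lower genes passed the filter on low counts only through the control group, where they are high, so their calls are a description. In cisplatin libraries Flt3 had 16, 9 and 6 counts, Clec9a 8, 0 and 2, and Cd209a 4, 4 and 2. B and plasma cell markers were lower for 1 of 2 tested (sums 9.28 to 14.5 CPM in cisplatin and 14.04 to 29.8 CPM in control libraries), platelet markers higher for 1 and lower for 1 of 3 (4.93 to 5.66 CPM in cisplatin and 3.27 to 5.002 CPM in control libraries), urothelial markers higher for 3 of 6 (10.99 to 14.9 CPM in cisplatin and 7.02 to 11.6 CPM in control libraries), and erythroid markers passed in neither direction for 5 of 5 (142 to 234 CPM in cisplatin and 124 to 250 CPM in control libraries). The higher platelet marker, Pf4, had 14, 3 and 13 counts in control libraries and passed the filter on low counts only through the cisplatin group. The lower one, Ppbp, had 4, 6 and 8 counts in cisplatin libraries and passed only through the control group. Both calls are therefore a description. The defining platelet genes Gp1ba and Gp1bb were at or near 0 in all libraries, and Itga2b counts among the platelet markers.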
